A study of Homo sapiens with 12 samples.

Results

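The genes described here are 6 transcription factors of the kidney lineage and of clear cell renal cell carcinoma (ccRCC), PAX8, PAX2, EMX2, LHX1, HNF4A and ZNF395, chosen by name from the 23106 gene symbols counted in each library. These genes and the lists below were chosen with earlier results of these data known. The shares of them that were called are therefore descriptions, not tests of the sets. They were followed in RCC4 cells, an established line from a ccRCC without functional VHL, the protein that marks hypoxia-inducible factors (HIFs) for destruction, so that HIF-1 and HIF-2 are present in normal oxygen. Cells were transfected with pools of siRNAs at a total of 2 nM and harvested after 48 h: 2 nM control (non-targeting) siRNA, 1 nM HIF1A siRNA with 1 nM control siRNA, 1 nM HIF2A siRNA (against EPAS1, the HIF-2α gene) with 1 nM control siRNA, or 1 nM of each HIF siRNA in the double knockdown, which alone received no control siRNA and which the study did not analyze. Each of the 4 groups held 3 replicates, giving 12 poly(A) RNA libraries, all from the same cell line. The comparisons ask whether these factors depend on HIF-1, on HIF-2 or on both.

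PAX2 and PAX8 are paired-box factors that specify the nephric lineage in the embryo, and renal carcinomas keep PAX8 so regularly that pathologists use it as a marker of renal origin. LHX1, a LIM-homeodomain factor, patterns the early nephron, EMX2 is a homeodomain factor needed for the ureteric bud and the rest of the urogenital system, and HNF4A is a nuclear receptor of the mature proximal tubule, the segment from which ccRCC is thought to arise. ZNF395 is a zinc finger factor described as induced by hypoxia. HIFs bind DNA at a short core, ACGTG or GCGTG, in the control regions of their target genes.

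RefSeq promoter windows (250 bases before to 50 bases after a transcription start, GRCh38.p14) were read for PAX8, PAX2 and EMX2, the well-measured factors for which the table held one, to show where that HIF core lies. Matches on either strand are in capitals. The PAX8 window is chr2:113278872-113279171 on the minus strand, the PAX2 windows are chr10:100735146-100735445 (upstream start) and chr10:100745332-100745631 (downstream start) on the plus strand, and the EMX2 window is chr10:117542496-117542795 on the plus strand.
PAX8: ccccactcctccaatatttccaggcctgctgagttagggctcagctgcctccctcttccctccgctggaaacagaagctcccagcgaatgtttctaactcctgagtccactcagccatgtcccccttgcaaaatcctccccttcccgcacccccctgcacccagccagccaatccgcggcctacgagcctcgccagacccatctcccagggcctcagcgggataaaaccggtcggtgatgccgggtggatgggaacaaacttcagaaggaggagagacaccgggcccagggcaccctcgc
PAX2 upstream start: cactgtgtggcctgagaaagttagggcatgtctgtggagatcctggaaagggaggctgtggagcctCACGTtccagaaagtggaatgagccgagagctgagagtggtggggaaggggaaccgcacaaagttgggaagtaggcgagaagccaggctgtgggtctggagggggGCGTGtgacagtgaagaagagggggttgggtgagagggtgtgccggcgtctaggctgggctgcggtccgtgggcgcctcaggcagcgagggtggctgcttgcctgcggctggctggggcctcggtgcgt
PAX2 downstream start: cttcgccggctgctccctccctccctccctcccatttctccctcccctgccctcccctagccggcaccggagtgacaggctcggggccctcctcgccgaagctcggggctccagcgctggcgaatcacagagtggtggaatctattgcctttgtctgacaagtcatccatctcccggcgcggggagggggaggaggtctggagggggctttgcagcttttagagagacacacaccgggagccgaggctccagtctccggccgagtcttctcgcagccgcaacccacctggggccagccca
EMX2: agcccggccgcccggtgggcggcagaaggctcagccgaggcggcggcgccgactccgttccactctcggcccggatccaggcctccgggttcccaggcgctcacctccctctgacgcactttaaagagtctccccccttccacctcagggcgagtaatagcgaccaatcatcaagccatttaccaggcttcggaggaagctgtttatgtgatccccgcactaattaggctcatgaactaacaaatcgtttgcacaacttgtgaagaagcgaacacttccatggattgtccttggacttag
The upstream PAX2 window held 2 matches, CACGT, which reads ACGTG on the opposite strand and begins 184 bases before the start, and GCGTG beginning 79 bases before it. The other 3 windows held 0 matches, which says only that these letters are not in them. Of 34796 RefSeq promoter windows of this length, 48.4% held ACGTG or GCGTG on either strand, so a match in 1 window is common. LHX1 and ZNF395 are named only.

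Between 13263168 and 20451433 reads per library were counted on genes. Levels are given as CPM, the count as a share of the library total scaled with the trimmed mean of M-values (TMM). HIF1A fell to between 12.5% and 30.6% of the control library of the same replicate number under HIF1A siRNA, and EPAS1 to between 5.46% and 8.60% under HIF2A siRNA. In the double knockdown the ranges were 20.1% to 55.3% for HIF1A and 4.10% to 8.16% for EPAS1. EPAS1 under HIF1A siRNA was at 62.2% to 78.5% of control (log2 fold change -0.47, adjusted p = 0.28, edgeR quasi-likelihood F test, Benjamini-Hochberg). Of the listed epithelial markers, KRT8 (366 to 570 CPM) and EPCAM (32.3 to 70.8 CPM) were counted in every library, while CDH1, which encodes E-cadherin, did not exceed 0.482 CPM. Of the listed markers of other cell types, 5 were counted in every library: COL1A1 (16.6 to 71.1 CPM), RGS5 (1.73 to 10.4 CPM) and PDGFRB (0.647 to 8.58 CPM) of pericytes and fibroblasts, CD68 of immune cells (32.6 to 65.1 CPM) and PODXL of podocytes (22.9 to 54.1 CPM). The others did not exceed the 1.08 CPM of SCNN1A, and UMOD, SLC12A1, AQP2, PECAM1, PTPRC and COL3A1 were among those at 0 counts in all 12 libraries. The part of these genes in the results was not tested.

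The 6 factors fell into 4 ranges of abundance. Per kilobase of transcript, over the 12 libraries, PAX8 was at 63.3 ± 9.33 CPM per kb (SD, n = 12) and ZNF395 at 55.8 ± 27.1, followed by PAX2 at 15.2 ± 5.58 and EMX2 at 15.2 ± 6.52. LHX1 was at 0.702 ± 0.182 and HNF4A at 0.0290 ± 0.0287 CPM per kb. The ranges of PAX8 and ZNF395 overlapped, as did those of PAX2 and EMX2, whereas every library of PAX8 and ZNF395 was above every library of PAX2 and EMX2, those above LHX1, and LHX1 above HNF4A. In the control siRNA libraries alone ZNF395 (83.7 ± 4.65 CPM per kb, SD, n = 3) was above PAX8 (56.4 ± 8.70), and in the double knockdown PAX8 (73.4 ± 6.14) was above ZNF395 (24.2 ± 0.741). Of the other factors listed, SLC2A4RG, a paralog of ZNF395, was at 56.4 ± 14.2 CPM per kb.

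**Figure D1:**
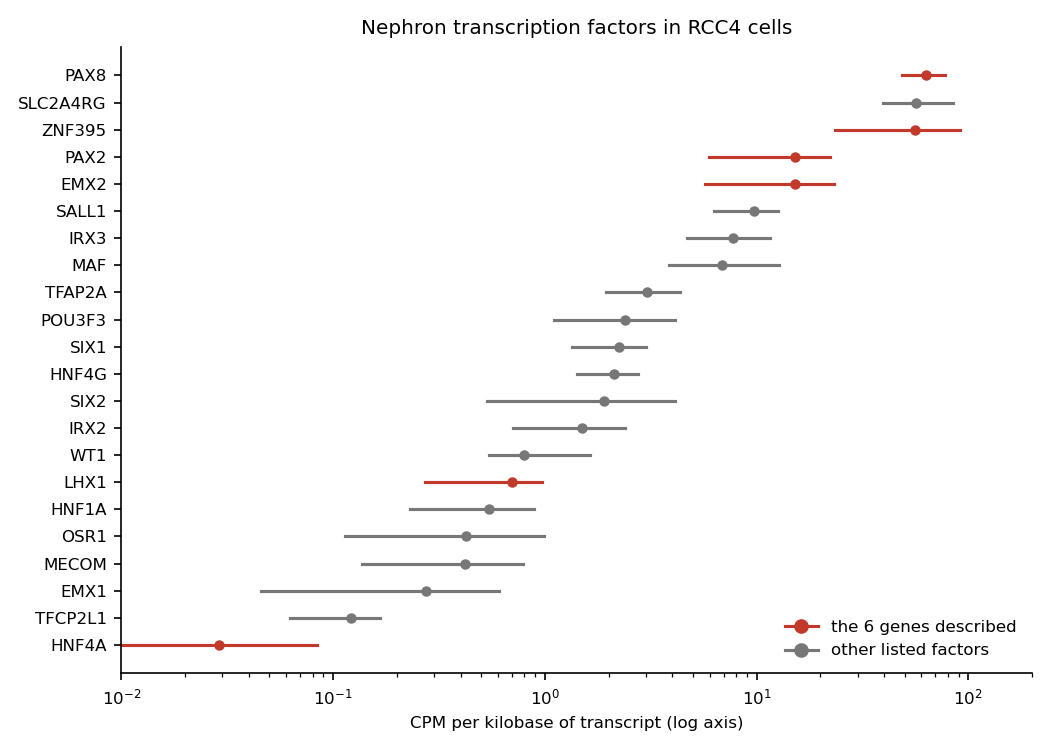
Mean level (point) and range over the 12 libraries (line) in CPM per kilobase of transcript, on a log axis, for the 6 factors (red) and the other listed nephron transcription factors and paralogs of the members that passed the count filter (gray). PAX8 and ZNF395 lie near SLC2A4RG at the top, LHX1 lies below 1 CPM per kb, and the HNF4A line starts at libraries with 0 counts, drawn at the left edge.

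In the GENCODE v44 annotation (GRCh38) the genes lie at chr2:113215997-113278921 on the minus strand (PAX8), chr10:100745582-100829944 on the plus strand (PAX2), chr10:117542746-117549546 on the plus strand (EMX2), chr17:36937475-36944612 on the plus strand (LHX1), chr20:44355699-44432845 on the plus strand (HNF4A) and chr8:28345590-28386460 on the minus strand (ZNF395). These spans are of the main annotated transcript, whose length was used for levels per kilobase, and belong to another build than the hg19 counts. PAX8 and EMX2 overlap antisense genes, PAX8-AS1 (LOC654433 in the counts, 5.75 to 15.8 CPM) and EMX2OS (3.84 to 14.3 CPM). The library kit keeps strand but the strand setting of the counting was not given in the sources used here, so reads of such a pair cannot be told apart.

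ZNF395 was the only 1 of the 5 testable factors called between siRNA groups in the main edgeR fits (adjusted p under 0.05). Its level was 426, 396 and 383 CPM in the control siRNA libraries of replicates 1, 2 and 3, and 188, 181 and 175 CPM under HIF1A siRNA. Under HIF2A siRNA it was 334, 440 and 341 CPM, and in the double knockdown 113, 116 and 120 CPM. The HIF1A siRNA and double knockdown libraries overlapped with no other group, while the HIF2A siRNA libraries lay on both sides of the controls. Within replicate numbers, HIF1A siRNA left 44.0% to 45.9% of the control level, HIF2A siRNA 78.3% to 111%, and the double knockdown 26.5% to 31.3%. As in any bulk sample, fewer cells with a transcript and less of it per cell cannot be told apart.

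**Figure D2:**
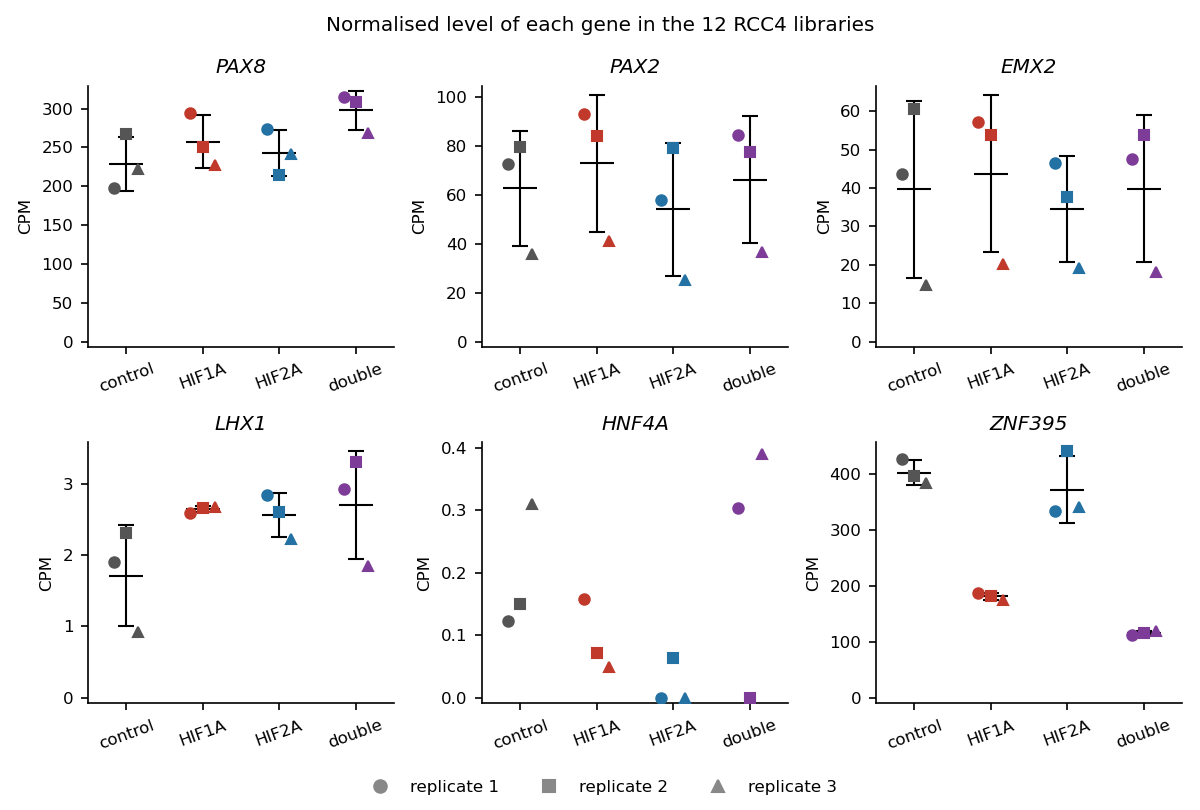
CPM of each of the 6 factors in the 12 libraries by siRNA group (control, HIF1A, HIF2A, double knockdown), with circles, squares and triangles for replicates 1, 2 and 3 and horizontal lines and bars for the mean and SD of 3 libraries (not drawn for HNF4A, which had 0 to 8 counts). ZNF395 is lowest in the double knockdown (113 to 120 CPM), and in PAX2 and EMX2 the replicate 3 library is the lowest of each group.

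With HIF1A siRNA against control siRNA, ZNF395 fell by 1.14 on the log2 scale (SE 0.13, adjusted p = 0.00029, edgeR quasi-likelihood F test, Benjamini-Hochberg over 12830 genes, 3 of 3 pairs lower). It was the single member called of 5 tested, where 1.17% of all genes tested were called. PAX8, PAX2, EMX2 and LHX1 were not called, with log2 fold changes of 0.17 (95% interval -0.14 to 0.48), 0.22 (-0.09 to 0.53), 0.20 (-0.17 to 0.57) and 0.68 (-0.17 to 1.53). Over the 19 alternatives run, PAX2 ranged from 0.13 to 0.35, EMX2 from 0.043 to 0.48 and LHX1 from 0.32 to 0.95, and the lowest and highest PAX8 values differed in sign. The study placed ZNF395 in its list of HIF-1 genes from these same libraries, so that list is not independent evidence of this direction.

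With HIF2A siRNA against control siRNA, 0 of the 5 tested members were called by edgeR, where 0.0857% of all genes tested were. None of the 5 was below an unadjusted p of 0.05, and DESeq2 also called 0. ZNF395 had a log2 fold change of -0.11 (95% interval -0.38 to 0.16), PAX8 of 0.09 (-0.21 to 0.40), PAX2 of -0.26 (-0.58 to 0.05), EMX2 of -0.08 (-0.46 to 0.29) and LHX1 of 0.62 (-0.23 to 1.47). PAX2 was at 69.8%, 79.6% and 99.3% of the paired control, lower in 3 of 3 pairs. Its log2 fold change was -0.45 without HIF2A siRNA replicate 2, -0.43 without replicate 2 in every group, -0.17 without HIF2A siRNA replicate 3 and -0.16 without replicate 3 in every group, and it was not called in any of these fits.

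The difference between the single knockdowns was tested directly. Under HIF1A siRNA, ZNF395 stood below its level under HIF2A siRNA, by a log2 fold change of -1.04 (SE 0.13, adjusted p = 0.00060, edgeR quasi-likelihood F test, Benjamini-Hochberg, 3 of 3 pairs), again 1 of 5 members, with 1.5% of all genes tested called. PAX2 leaned the other way, at 106% to 164% of its HIF2A siRNA level under HIF1A siRNA (log2 fold change 0.48, SE 0.15, 3 of 3 pairs higher), without passing the adjustment (adjusted p = 0.18). Over the 19 alternatives run the PAX2 log2 fold change ranged from 0.37 to 0.71, and PAX2 was called in 2 of them. Both left out HIF2A siRNA replicate 2. Without this library the log2 fold change was 0.67 with an adjusted p of 0.019 by the same edgeR test. Without replicate 2 in every group it was 0.71 with an adjusted p of 0.015.

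ZNF395 was lowest in the double knockdown. In the double knockdown it was lower than in control by a log2 fold change of -1.79 (SE 0.11, adjusted p = 1.2e-07) and lower than with HIF2A siRNA by -1.67 (SE 0.11, adjusted p = 3.4e-07), both from the edgeR quasi-likelihood F test (Benjamini-Hochberg over 13000 genes). ZNF395 alone of the 5 tested members was called in each, where 10.3% and 4% of all genes tested were called. The number of genes called against control, 1336, itself depended on the libraries and the fit: it was 195 with no replicate block, 302 without replicate 3 in every group, 513 without replicate 1 in every group, between 667 and 766 without any 1 double knockdown library, 702 without control siRNA replicate 3, 2307 without HIF2A siRNA replicate 2 and 2609 with only the 6 compared libraries. PAX2 against HIF2A siRNA had a log2 fold change of 0.34 (SE 0.13, adjusted p = 0.19, same edgeR test). Over 21 alternatives it ranged from 0.20 to 0.55, and PAX2 was called in 2 of them by that test. These were 0.53 with an adjusted p of 0.012 without HIF2A siRNA replicate 2 and 0.55 with 0.018 without replicate 2 in every group.

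Against HIF1A siRNA, ZNF395 was at 60.1%, 63.8% and 68.4% of the paired library, a log2 fold change of -0.64 (SE 0.11, adjusted p = 0.0078 by the same edgeR test), as the 1 called of 5 tested members, with 1.4% of all genes tested called. HIF1A itself was at 134% to 180% of its HIF1A siRNA level in those pairs. The size of that difference held when libraries were left out, but the call was lost in several cases. The adjusted p by edgeR's test was 0.059 without HIF1A siRNA replicate 1 and also 0.059 without HIF1A siRNA replicate 3, 0.082 without double knockdown replicate 1, 0.12 without replicate 1 in every group, 0.28 without replicate 3 in every group and 0.19 with no replicate block, with log2 fold changes between -0.69 and -0.60.

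The interaction, which asks whether the double knockdown departs from the sum of the single log2 effects, was -0.53 for ZNF395 (95% interval -0.86 to -0.19, unadjusted p = 0.0044, adjusted p = 0.999, edgeR quasi-likelihood F test, Benjamini-Hochberg). For the interaction 0 of 5 members and 0% of all genes tested were called by edgeR. Of 13000 genes tested, 318 were below an unadjusted p of 0.05 by the same edgeR test, ZNF395 among them. That is fewer than evenly spread p-values would put there. DESeq2 called 11 genes but no member.

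**Figure D3:**
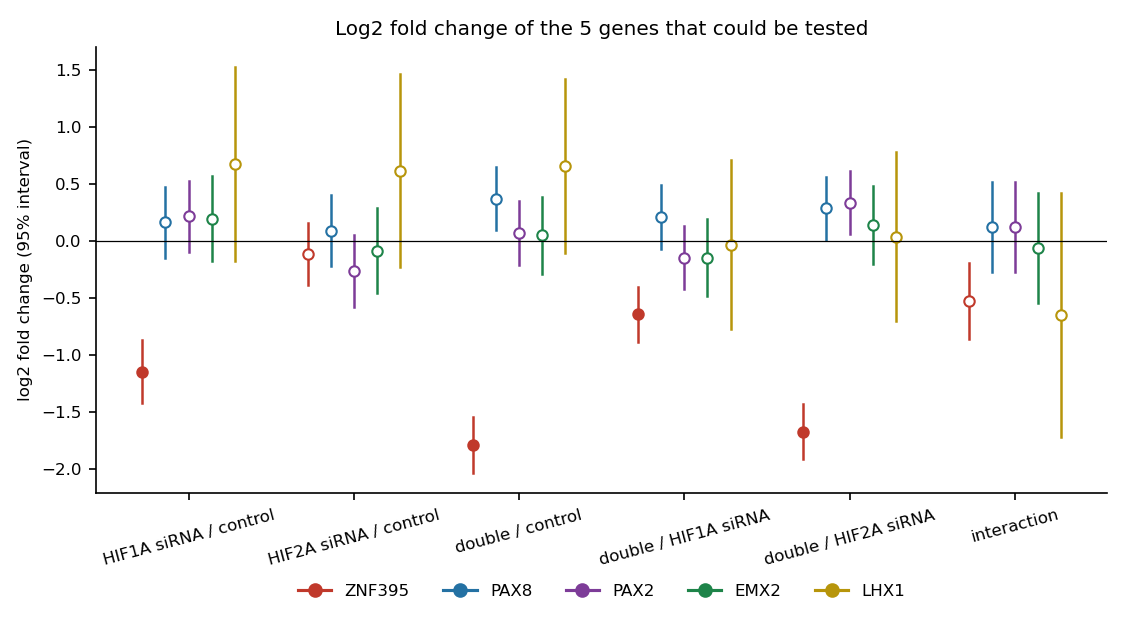
Log2 fold change (points) with 95% intervals (lines) of the 5 testable factors in 5 siRNA comparisons and in the interaction term, from edgeR fits with the replicate number as a block; filled points passed an adjusted p of 0.05. Filled points are ZNF395 only, at -1.14, -1.79, -0.64 and -1.67.

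PAX8 was present at high level in every library. It was 197, 267 and 222 CPM in the control libraries of replicates 1 to 3, 294, 251 and 227 CPM under HIF1A siRNA, 274, 215 and 242 CPM under HIF2A siRNA, and 315, 309 and 269 CPM in the double knockdown. The double knockdown libraries were above all 3 controls, by a small margin in the closest case (269 against 267 CPM), and the single knockdown groups overlapped the controls. The double knockdown was at 116% to 160% of the paired control and higher than the paired library of each single knockdown in 3 of 3 pairs.

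For PAX8 in the double knockdown against control the log2 fold change was 0.37 (SE 0.13, adjusted p = 0.084, edgeR quasi-likelihood F test, Benjamini-Hochberg), so PAX8 was not called. The call turned on the library set and the tool. The log2 fold change was 0.21 without control siRNA replicate 1 (adjusted p = 0.35) and 0.24 without replicate 1 in every group (adjusted p = 0.43), both by the same edgeR test. In the other direction, the adjusted p was 0.032 without control siRNA replicate 2 (log2 fold change 0.53), 0.022 without HIF2A siRNA replicate 2, 0.020 without replicate 2 in every group and 0.0064 with only the 6 compared libraries in edgeR, and 0.044 with DESeq2.

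PAX2 and EMX2 varied more with the replicate number than with the siRNA. PAX2 was 72.6, 79.5 and 35.8 CPM in control replicates 1, 2 and 3, 93.1, 84.1 and 41.1 CPM under HIF1A siRNA, 57.8, 78.9 and 25.0 CPM under HIF2A siRNA, and 84.4, 77.3 and 36.4 CPM in the double knockdown. EMX2 in the same order was 43.6, 60.6 and 14.8 CPM in control, 57.1, 53.7 and 20.2 CPM under HIF1A siRNA, 46.4, 37.7 and 19.3 CPM under HIF2A siRNA, and 47.6, 53.8 and 18.0 CPM in the double knockdown. For both genes all 4 replicate 3 libraries were below all 8 others, while the siRNA groups overlapped when replicate numbers were ignored. Within replicate numbers, both were higher under HIF1A siRNA than under HIF2A siRNA in 3 of 3 pairs, PAX2 at 106% to 164% and EMX2 at 105% to 142%. PAX2 was also lower in the double knockdown than under HIF1A siRNA in 3 of 3 pairs, at 88.7% to 92.0%, and neither gene was called in these comparisons with all libraries included.

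Replicate 3 held 36.6% to 47.1% of the mean of replicates 1 and 2 for PAX2 and 28.5% to 45.8% for EMX2, over the 4 siRNA groups, against 83.3% to 99.0% for PAX8. In a test of the replicate number added after the values were seen, adjusted p was 6.2e-06 for PAX2 and 6.8e-06 for EMX2 (edgeR quasi-likelihood F test, Benjamini-Hochberg), and 0.45 for PAX8, 0.28 for LHX1 and 0.60 for ZNF395. These were 2 of 5 members, where 50.3% of all genes tested were called, so the members' share was no higher than the background. Replicate 3 against 1 gave log2 fold changes of -1.15 (SE 0.11) for PAX2 and -1.42 (SE 0.14) for EMX2, with 45.3% of all genes called, and replicate 3 against 2 gave -1.24 and -1.50, with 50.1% called. Replicate 2 against 1 called 0 members and 0.208% of all genes in edgeR, with a log2 fold change of 0.08 for PAX2 and for EMX2. DESeq2 was not run on the replicate numbers.

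The split of the variance of log2(CPM + 0.5) over the 12 libraries separated the members. The replicate number held 92.5% of it for EMX2, 87.2% for PAX2, 32.8% for LHX1, 9.80% for PAX8 and 0.329% for ZNF395, beside a median of 46.4% over all genes tested. The siRNA held 98.2% for ZNF395, 48.7% for PAX8, 44.8% for LHX1, 8.98% for PAX2 and 2.31% for EMX2, beside a median of 19.2% over all genes tested. PAX2 and EMX2 correlated across the 12 libraries at Pearson's r = 0.915, and at 0.177 after the mean of each replicate number was subtracted. The labels name replicates by number only, and what separated replicate 3 was not tested.

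**Figure D4:**
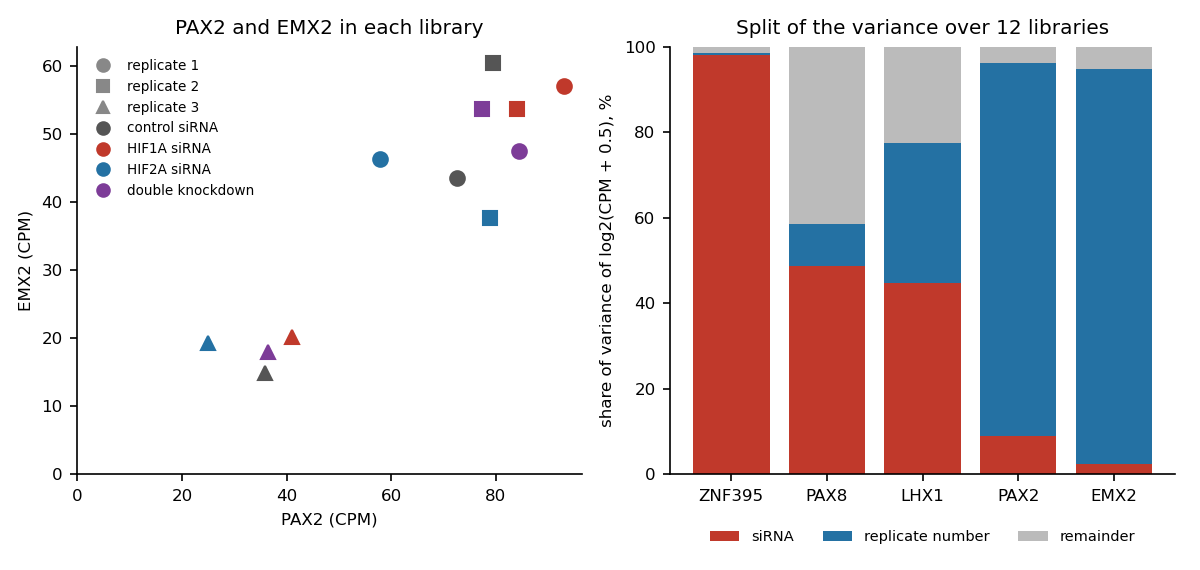
Left, EMX2 against PAX2 in CPM for the 12 libraries, colored by siRNA group and shaped by replicate number; the 4 replicate 3 libraries lie together at the lower left. Right, share in percent of the variance of log2(CPM + 0.5) held by the siRNA, the replicate number and the remainder, with 98.2% on the siRNA for ZNF395 and 92.5% on the replicate number for EMX2.

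LHX1 was counted only 15 to 58 times per library. It was 1.90, 2.31 and 0.930 CPM in control replicates 1, 2 and 3, 2.60, 2.66 and 2.68 CPM under HIF1A siRNA, 2.84, 2.61 and 2.23 CPM under HIF2A siRNA, and 2.93, 3.31 and 1.85 CPM in the double knockdown. All 3 knockdown groups were above the control of the same replicate number in 3 of 3 pairs, and all 3 comparisons share those controls. The HIF1A siRNA libraries were above every control, whereas the HIF2A siRNA and double knockdown groups overlapped the controls. The double knockdown log2 fold change was 0.66 (95% interval -0.10 to 1.43, adjusted p = 0.27, edgeR quasi-likelihood F test, Benjamini-Hochberg). Control siRNA replicate 3, with 15 counts, moved these values: without it the log2 fold change was 0.43 in the double knockdown against 0.66 with it, 0.38 against 0.68 with HIF1A siRNA and 0.32 against 0.62 with HIF2A siRNA.

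HNF4A was near the limit of counting. Control replicates 1, 2 and 3 held 2, 3 and 5 counts, HIF1A siRNA 3, 1 and 1, HIF2A siRNA 0, 1 and 0, and the double knockdown 6, 0 and 8. The sum over all libraries was 30 counts, and 3 of 12 libraries had 0, which allows up to 0.226 CPM in the shallowest of them (3 counts, counting error only). HNF4A did not pass the count filter, and in the fit without a filter its adjusted p (Benjamini-Hochberg, edgeR quasi-likelihood F test) was 0.48 or above in each of the 7 comparisons. No difference between groups was detectable at this depth.

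Of the 30 other transcription factors listed, which were nephron factors together with paralogs of the members such as SLC2A4RG, 16 could be tested. With HIF1A siRNA, with HIF2A siRNA and between the single knockdowns 0 of 16 were called by edgeR and 0 by DESeq2, with 0 to 2 below an unadjusted p of 0.05, where edgeR called 1.17%, 0.0857% and 1.5% of all genes tested. In the double knockdown against control, where 10.3% of all genes were called, 2 of 16 rose, a share near that background. They were SIX2, a factor of nephron progenitors (log2 fold change 1.30, SE 0.32, adjusted p = 0.017, edgeR quasi-likelihood F test, Benjamini-Hochberg), and MAF, a basic leucine zipper factor (0.91, SE 0.24, adjusted p = 0.027). The median log2 fold change of the 16 there was 0.20, beside 0.00 over all genes.

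SIX2 was scarce, at 2.45 ± 1.76 CPM in control and 5.30 ± 0.844 CPM in the double knockdown (SD, n = 3), and MAF went from 12.7 ± 2.72 to 24.7 ± 7.92 CPM. Both genes were higher in the double knockdown in 21 of 21 alternatives, with log2 fold changes of 1.05 to 1.79 for SIX2 and 0.56 to 1.18 for MAF, but their calls were lost when single libraries were left out. SIX2 had an adjusted p by edgeR's test of 0.077 and 0.094 without control siRNA replicates 1 and 3 and 0.10 and 0.090 without double knockdown replicates 1 and 3. MAF had 0.16 without control siRNA replicate 3 (log2 fold change 0.60) and 0.11 and 0.13 without double knockdown replicates 1 and 3. SALL1, SLC2A4RG and IRX3, the highest of the list by mean CPM, were not called in any comparison. In the double knockdown against control IRX3 had a log2 fold change of -0.24 (SE 0.18), SALL1 of 0.21 (SE 0.15) and SLC2A4RG of 0.40 (SE 0.17, adjusted p = 0.15, same edgeR test).

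Of 36 proximal tubule genes 13 could be tested, and 23 were too low, among them LRP2, the endocytic receptor megalin (0 to 4 counts), AQP1, a water channel (0 to 9 counts), and SLC34A1, a phosphate transporter (0 to 8 counts). DPP4 (65.7 CPM), PDZK1IP1 (98.5 CPM) and GGT1 (122 CPM) were the highest by mean over the libraries, and edgeR called none of these 3 in any siRNA comparison. In the double knockdown against control 2 of 13 were called, where 10.3% of all genes tested were. SLC17A3, an organic anion transporter, rose (log2 fold change 1.26, SE 0.20, adjusted p = 0.00097, edgeR quasi-likelihood F test, Benjamini-Hochberg). MME, the membrane peptidase neprilysin, fell by 1.15 on the log2 scale (SE 0.18, adjusted p = 0.00068), though without replicate 3 in every group its adjusted p was 0.054. MME was also lower than with either single siRNA (-0.86 against HIF1A siRNA, -0.73 against HIF2A siRNA), calls lost without double knockdown replicate 2 (adjusted p = 0.13 and 0.16) or 3 (0.21 and 0.19), among others. SLC17A3 against HIF2A siRNA (0.86) was likewise lost without any 1 double knockdown replicate (adjusted p between 0.060 and 0.12). The direction held in 21 of 21 alternatives for each, with log2 fold changes of -1.18 to -0.67 and -1.05 to -0.55 for MME and 0.61 to 1.12 for SLC17A3. The median log2 fold change of the 13 against control was 0.15. For HIF1A siRNA or HIF2A siRNA against control 0 of 13 were called by edgeR or DESeq2, with 1 and 2 below an unadjusted p of 0.05, where edgeR called 1.17% and 0.0857% of all genes tested.

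Of 11 genes listed as targets of PAX2 or PAX8, 5 could be tested. CCND1 (cyclin D1) and CP (ceruloplasmin) were above their HIF2A siRNA level under HIF1A siRNA, by log2 fold changes of 0.66 (SE 0.11, adjusted p = 0.0068) and 0.68 (SE 0.13, adjusted p = 0.014), and lower in the double knockdown than in control, by -0.95 (SE 0.10, adjusted p = 1.8e-05) and -0.75 (SE 0.11, adjusted p = 0.00056), all by the edgeR quasi-likelihood F test (Benjamini-Hochberg). These were 2 of 5 in each comparison, where 1.5% and 10.3% of all genes tested were called. The same 2 of 5 were lower in the double knockdown than under HIF1A siRNA, where 1.4% of all genes tested were called. The log2 fold changes were -0.99 for CCND1 (adjusted p = 7.9e-05) and -0.77 for CP (0.0019), by the same edgeR test. Those calls held in 20 and 19 of 21 alternatives. The median of the 5 in the double knockdown against control was -0.08. PAX2 and PAX8 themselves were not called by edgeR in any of these comparisons with all libraries included. The study plotted CCND1 in its cultured cells under hypoxia or a HIF-2 inhibitor. Whether CCND1 and CP changed through PAX2 or PAX8 was not tested. Between the single knockdowns the log2 fold change stayed between 0.62 and 0.73 for CCND1 and between 0.57 and 0.77 for CP over 19 alternatives. The calls were lost in 5 of these for CCND1 and in 6 for CP. There the adjusted p by edgeR's test reached 0.99995 and 0.91. Without HIF1A siRNA replicate 1 it was 0.074 and 0.084 for CCND1 and CP, and without HIF1A siRNA replicate 2 it was 0.080 and 0.15. Without HIF2A siRNA replicate 3 it was 0.083 and 0.069, and, for CP, 0.060 without HIF2A siRNA replicate 1. Without replicate 3 in every group the CP difference between double knockdown and control had an adjusted p of 0.063.

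CDH16, the kidney-specific cadherin, was 26.3 ± 9.12 CPM in control and 44.5 ± 19.0 CPM with HIF2A siRNA (SD, n = 3) and was not called (log2 fold change 0.76, SE 0.18, adjusted p = 0.27, edgeR quasi-likelihood F test, Benjamini-Hochberg). In the same comparison CCND1 had a log2 fold change of -0.63 (adjusted p = 0.065) and CP of -0.66 (adjusted p = 0.11). With HIF2A siRNA against control 0 of 5 targets were called by edgeR, which called 0.0857% of all genes tested, and 3 were below an unadjusted p of 0.05. DESeq2 called 3 of the 5, 2 lower and 1 higher, among 58 genes in all. Of the listed genes, 6 of 16 nephron factors and paralogs, 7 of 13 proximal tubule genes and 3 of 5 PAX targets differed between replicate numbers, as 50.3% of all genes tested did. CDH16 (log2 fold change of replicate 3 against 1, -0.57), CCND1 (-0.95) and POU3F3 (-1.05) were among those lower in replicate 3, as PAX2 and EMX2 were, and MECOM (1.44) and CP (0.44) were higher; these 5 were chosen after their values were seen.

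The genes whose pattern over the 12 libraries was most like each member's, after the mean of each replicate number was subtracted, were found by Pearson's r on log2(CPM + 0.5) among 13000 genes, so that the highest values are selected ones. For ZNF395 they were P4HA2, a collagen prolyl hydroxylase (r = 0.993), DDIT4, an inhibitor of mTORC1 (0.991), and RORA, a nuclear receptor (0.987). DDIT4 had mean levels of 142, 59.4, 133 and 30.2 CPM in control, HIF1A siRNA, HIF2A siRNA and double knockdown. For PAX8 they were PRMT1, an arginine methyltransferase (0.984), GPS1 (0.982) and ARF1, a small GTPase (0.973), and PRMT1 had mean levels of 234, 260, 244 and 304 CPM. The likeness was weaker for EMX2 (ATP1B1, 0.913, SLC37A3, 0.911, and PPP1R11, 0.908), PAX2 (KCNK3, 0.881, HAUS4, 0.872, and C11orf95, 0.868) and LHX1 (WDR76, 0.883, FAM155A, 0.869, and RHOF, 0.867).

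Among the members themselves, after the same subtraction, ZNF395 ran against PAX8 (r = -0.751), LHX1 (-0.548), PAX2 (-0.469) and EMX2 (-0.421) over the 12 libraries. The points share the 4 siRNA groups, and the groups with the lowest ZNF395 were the double knockdown and HIF1A siRNA. PAX8 and EMX2 had r = 0.556 and PAX8 and LHX1 0.462.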

How the data were processed

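RNA-seq was performed on 12 RCC4 libraries (polyA RNA, directional kit), 3 replicates in each of 4 siRNA groups taken from the labels. The deposited values are raw counts per gene symbol, made by the authors with Trim Galore 0.3.3, HISAT2 2.05, Picard 2.0.1 and HTSeq 0.5.4p3 on hg19 (versions as in the submitters' processing notes), and they were not normalized. Here the counts were tested with edgeR 4.0.16 in R 4.3.3 (glmQLFit and glmQLFTest, trimmed mean of M-values factors, filterByExpr with a minimum count of 10 and a total of 15), with the replicate number as a block because the study's methods paired conditions by biological replicate. Single knockdowns and their direct comparison used the 9 libraries without the double knockdown (12830 genes), and the remaining comparisons all 12 (13000 genes). A gene was called at an adjusted p (Benjamini-Hochberg over all genes tested) under 0.05.

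DESeq2 1.42.0, other filters and scalings, no replicate block, and leaving out each library or replicate number were alternatives. Deviations from group means correlated at 0.0991 to 0.813 between libraries of the same number and at -0.724 to 0.527 between different numbers. Taking deviations from group means itself pushes the values for different numbers down. Replicate 2 against 1 called only 0.208% of all genes, so these values cannot check how replicates 1 and 2 were paired. Replicates of a group differed by more than counting noise (chi-square per degree of freedom 16.3 to 122). The study's methods name biological replicates but do not say how separate the cultures were, so p-values measure the spread between these libraries. Totals were 13263168 to 20451433 counts. The 95% intervals of log2 fold changes come from the edgeR fits and include the spread between libraries. The limit given for counts of 0 covers counting error only.

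Levels per kilobase used the GENCODE v44 main transcript length. The named genes are the 6 factors, HIF1A and EPAS1, the 3 genes most like each tested factor, and from each list the genes called in any comparison and the 3 highest by mean CPM. The members and lists were chosen with earlier results of these data known. Some listed genes are not reported here and were left out of the list counts. The fits were also run on counts simulated from the fitted edgeR model, which cannot check whether that model holds for these libraries.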

Additional observations from a re-analysis of the deposited data

How the results depend on the processing

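The fall of ZNF395 with HIF1A siRNA, its difference between the single knockdowns and its fall in the double knockdown against control and against HIF2A siRNA kept direction and call under every alternative run. With no replicate block the number of members called was 1 for these 4 comparisons, 0 for HIF2A siRNA and for the interaction, and 0 against 1 for the double knockdown against HIF1A siRNA, so that 1 call depended on the paired fit. Leaving out libraries gave 1 to 2 members called for HIF1A siRNA against HIF2A siRNA and for the double knockdown against HIF2A siRNA (PAX2 joining), 1 to 2 for the double knockdown against control (PAX8 joining) and 0 to 1 for the double knockdown against HIF1A siRNA. DESeq2 and a fit of only the 6 compared libraries each called 2 for the double knockdown against control, and other scalings and filters changed no member's call.

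Some log2 fold changes that were not called turned in sign when 1 library or replicate number was omitted, and the cause was not tested. Over those omissions PAX8 ranged from -0.025 to 0.35 with HIF1A siRNA and from -0.10 to 0.28 with HIF2A siRNA, PAX2 in the double knockdown against control from -0.014 to 0.15, EMX2 from -0.30 to 0.22 with HIF2A siRNA and from -0.081 to 0.29 in the double knockdown, and ZNF395 with HIF2A siRNA from -0.27 to 0.017. Of the listed genes called in the double knockdown against control, MME kept its call with no replicate block, while the log2 fold changes of the other 5 stayed near their values with the block but were not called by edgeR: 1.30 for SLC17A3 (adjusted p = 0.090), -0.76 for CP (0.18), 0.96 for MAF (0.24), -0.95 for CCND1 (0.34) and 1.10 for SIX2 (0.51). Over all genes the calls were fewer with no replicate block, at 41 against 150 for HIF1A siRNA, 1 against 11 for HIF2A siRNA, 52 against 193 between the single knockdowns, and 195 against 1336, 8 against 182 and 90 against 520 for the double knockdown against control, HIF1A siRNA and HIF2A siRNA. DESeq2 called 236, 58, 329, 1842, 403 and 818 in the same order. Depth limits LHX1 and HNF4A.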
